A study of Mus musculus with 16 samples.

Results

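Dsp, Sct, Nr6a1, Cited1 and Zfp238 are 5 genes, of the 26219 in each table, that stood high in mouse germ cells of the E13.5 ovary (E, embryonic day). They were chosen from the reads-per-million values (RPM) of the E13.5 female libraries, among genes outside meiosis and the targets of BMP signalling. For this reason their differences from those libraries are given below as a description, without a test. The same 5 genes can be divided into those already present in germ cells at E10.5 and those that were low until E13.5. The word specific, used when these genes were picked, holds for the comparison with E13.5 males only in part: 4 of the 5 differed from the male mean by more than 8-fold in reads, Zfp238 by 1.99-fold, and Dsp was as high at E10.5 as in the E13.5 ovary.

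Primordial germ cells (PGCs) are the embryonic precursors of eggs and sperm. After they enter the gonad, female cells prepare for meiosis while male cells stop dividing and take up a spermatogonial programme. The 5 genes have separate roles elsewhere in the body. Dsp encodes desmoplakin, the plakin that ties the cadherins of the desmosome, a cell-to-cell junction, to intermediate filaments. Sct encodes secretin, a peptide hormone of the gut that stimulates bicarbonate secretion from the pancreas. Nr6a1, also called germ cell nuclear factor, encodes an orphan nuclear receptor that represses Pou5f1 as mouse embryonic cells differentiate. Cited1 encodes a transcriptional co-activator without a DNA-binding domain of its own, which acts through CBP and p300. Zfp238, now named Zbtb18, encodes a zinc finger repressor of the BTB family that is needed for neuron differentiation in the mouse cortex.

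The wild-type set held 8 libraries of PGCs heterozygous for a Dppa3-EGFP reporter, on a mixed ICR and C57BL/6 background, with 2 libraries each at E10.5, at E11.5, from E13.5 males and from E13.5 females. The other set held 8 libraries of E11.5 PGCs on a C57BL/6 background, all Prdm1(flox/flox) with Rosa26(neo-EYFP/+). In that set 4 control libraries carried no Cre transgene and 4 carried Dppa3-MCMP(Tg/0), a tamoxifen-inducible Cre, and all dams had received 3 mg 4-OHT (4-hydroxytamoxifen) per 25 g body weight at 10.5 dpc (days post coitum). The series concerns Prdm1, a repressor that PGCs need for their specification. The labels give no sex at E10.5 or E11.5, tie neither of the stated sorts (EYFP fluorescence, SSEA-1 antibody) to a group, and leave it unstated whether replicates are separate litters. The p-values therefore reflect the variation among these particular libraries, part or all of which could be technical.

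Depth ranged from 2798000 to 5032000 reads in the floxed libraries and from 1485000 to 4783000 in the wild-type ones, so that 3 reads, taken as the floor, corresponded to 0.596 to 2.02 RPM. The sex labels at E13.5 were checked against marker genes. Stra8, a gatekeeper of meiotic entry, averaged 407 ± 6.64 RPM in females and 1.21 ± 0.773 in males (SD, n = 2), and Nanos2, a male germ cell RNA-binding protein gene, averaged 0.105 ± 0.148 and 39.5 ± 3.42 RPM. Of 8 meiotic entry genes tested, 7 were called higher in females than in males (limma, adjusted p under 0.05), beside 21.2% of all genes. Spo11 was not called, at 18.3 ± 1.39 RPM in females and 29.0 ± 0.127 in males. Of 7 male germ cell genes 6 passed the filter of 5 RPM, and 5 were called lower in females, beside 16.4% of all genes. Cdkn2b was not called, and Dnmt3l, at 0 RPM in females and 0.176 ± 0.249 in males, did not pass. In the E13.5 female libraries the summed level of 7 germ cell markers was 6258 to 6322 RPM, that of 6 gonadal somatic markers 2.47 to 2.51 RPM, and that of 5 pre-granulosa markers 12.1 to 17.3 RPM. The male libraries held 21.8 to 35.4 RPM of 5 Sertoli markers, with Amh at 0, and the E10.5 libraries held 213 to 224 RPM of 6 erythroid markers. Prdm1 itself was 50.7 to 73.0 RPM in the controls and 76.6 to 89.4 RPM in the libraries labelled CKO (conditional knockout). A 3′ tag may lie outside the deleted part, so this level does not check the deletion, and the libraries are called CKO-labelled throughout.

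The start sites of Dsp, Sct and Nr6a1, the 3 genes whose own lowest wild-type group was E13.5 males, are shown to let their promoters be compared. Each window runs from 250 bases before to 50 bases after a RefSeq start (GRCm38.p6), is written 5′ to 3′ on the gene's strand, and has every match to a searched motif in capitals. The windows lie at chr13:38151044-38151343 (Dsp, plus strand), chr7:141279084-141279383 (Sct, minus strand) and chr2:38926412-38926711 (Nr6a1, minus strand, the upstream of 2 annotated starts).
Dsp: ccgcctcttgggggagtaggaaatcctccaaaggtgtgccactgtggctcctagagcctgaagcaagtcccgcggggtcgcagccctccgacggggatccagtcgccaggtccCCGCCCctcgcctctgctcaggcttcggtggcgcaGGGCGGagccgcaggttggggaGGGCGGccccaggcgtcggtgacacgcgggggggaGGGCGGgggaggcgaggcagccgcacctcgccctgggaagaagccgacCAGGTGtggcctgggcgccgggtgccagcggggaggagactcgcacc
Sct: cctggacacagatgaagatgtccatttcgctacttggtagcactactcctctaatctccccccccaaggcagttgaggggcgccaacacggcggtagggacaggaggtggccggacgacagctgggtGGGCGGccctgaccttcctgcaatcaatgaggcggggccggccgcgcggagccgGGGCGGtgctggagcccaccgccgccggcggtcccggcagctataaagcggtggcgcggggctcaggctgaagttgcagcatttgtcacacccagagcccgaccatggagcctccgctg
Nr6a1: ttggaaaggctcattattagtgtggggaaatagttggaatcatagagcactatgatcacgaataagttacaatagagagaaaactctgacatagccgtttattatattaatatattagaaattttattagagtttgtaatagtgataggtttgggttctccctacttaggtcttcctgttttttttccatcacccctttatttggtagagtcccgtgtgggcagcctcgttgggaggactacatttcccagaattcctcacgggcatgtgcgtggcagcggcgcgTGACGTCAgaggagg
The Dsp window held 4 GC boxes (GGGCGG, in capitals as GGGCGG or as its reverse complement) and 1 E-box (CACCTG, here on the minus strand of the gene). The Sct window held 2 GC boxes. The upstream Nr6a1 window held no GC box and 1 cyclic-AMP response element (TGACGTCA), 36 to 43 bases past the start.

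All 5 genes were matched in the promoter table, which held 32851 windows of 300 bases, and 8 motifs were searched on both strands. A GC box occurred in 35.7% of all windows, CACCTG in 20.2% and TGACGTCA in 1.79%. None of the motifs searched was shared by all 3 of the windows printed. The first Cited1 window (chrX:102252132-102252431, minus strand) held 1 GC box, and the first Zfp238 window (chr1:177442101-177442400, plus strand) held 12, several of them overlapping. In the first windows CpG dinucleotides numbered 27 for Dsp, 24 for Sct, 10 for Nr6a1, 18 for Cited1 and 51 for Zfp238. The median over all windows was 7. Windows 2 to 5 of Zfp238 held only 1 to 3, windows 2 and 3 of Cited1 held 14 and 32, and the downstream window of Nr6a1 held 8. The motif bound by PRDM1, searched as GAAAGTG and present in 4.81% of windows, occurred in none of the first windows and once in the downstream window of Nr6a1. That of NR6A1, searched as TCAAGGTCA and present in 0.423% of windows, occurred in no window of the 5 genes. The remaining searches, CACGTG (7.15% of windows), TTCCCGC for E2F factors (4.60%) and CNCCTCAG for STRA8 (7.94%), also matched no window of the 5 genes. A match describes the letters and shows no binding.

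Dsp, the junction gene, was present from E10.5, was close to its E10.5 level in E13.5 females and was nearly absent from E13.5 males. Its level was 77.2 and 76.2 RPM at E10.5, then 52.5 and 61.8 at E11.5, with 1.67 and 3.17 RPM in E13.5 males and 69.8 and 71.3 RPM in E13.5 females. The E13.5 female libraries lay just below both E10.5 libraries and above both at E11.5, and the male libraries lay far below all others. On the log2(RPM + 1) scale, where changes of low genes come out too small, the E13.5 female mean differed from the E10.5 mean by -0.12 ± 0.22 (limma standard error) and from the male mean by 4.42 ± 0.22. In reads, 594 in females stood against 14 in males, a depth-corrected ratio of 29.4 with a 95% counting interval of 17.4 to 54.0. This interval, like those of the other genes below, covers the counting of reads pooled by group. It leaves out the variation between libraries. In bulk samples fewer cells of a type and less RNA per cell cannot be told apart. On the same scale the male mean differed from that at E11.5 by -4.12, which placed Dsp at position 10742 of 10749 genes ordered from the largest rise to the largest fall. Desmoplakin is best known from squamous epithelium, so the markers of that tissue were set beside it. In the E13.5 female libraries 3 of the 6 squamous or surface epithelial markers, Krt5, Krt15 and Upk3b, were at 0, and the sum of all 6 was 4.60 to 7.40 RPM, beside 7.01 to 7.04 RPM in males, 22.2 to 24.8 at E11.5 and 24.4 to 31.1 at E10.5. Of the other marker sums, that of 5 mesonephric epithelial markers was 10.1 to 13.8 RPM in females and 78.5 to 81.0 in males. Of these, Pax2 and Cdh16 were at 0 in every E13.5 library. The sum of 5 endothelial markers was 115 to 121 RPM in females and 57.8 in males. Cdh5, Kdr and Tie1 were at 0 in both female libraries, and all of the 5 but Pecam1 were at 0 in male replicate 2. The part of cells of these types in the differences of the 5 genes was not tested.

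Sct, the hormone gene, was low at E10.5 and E11.5, higher in E13.5 females and at the edge of detection in E13.5 males. The libraries gave 17.2 and 12.8 RPM at E10.5, then 12.1 and 10.8 at E11.5, 0.334 and 0 RPM in E13.5 males, and 68.2 and 61.4 RPM in E13.5 females. Both female libraries stood above every other library and both male libraries below, and the E10.5 libraries lay just above those of E11.5. The female mean of 64.8 ± 4.78 RPM (SD, n = 2) was 2.05 ± 0.34 above the E10.5 mean on the log2(RPM + 1) scale. Between the sexes 550 reads stood against 1 read, a depth-corrected ratio of 381 whose 95% counting interval ran from 68.0 to 15059. Of the genes on either side on chromosome 7, Cdhr5 was 0.548 and 0.836 RPM and Drd4 1.92 and 2.30 RPM in the E13.5 female libraries, and both were at 0 in every other wild-type library.

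Nr6a1, the repressor gene, was the member with intermediate behaviour, since it was present at E10.5, higher in E13.5 females, and lower but still detected in E13.5 males. Its values were 92.1 and 106 RPM at E10.5, then 74.1 and 71.5 at E11.5, 19.4 and 16.6 RPM in E13.5 males, and 153 and 168 RPM in E13.5 females. The 4 groups did not overlap, with females highest, then E10.5, then E11.5, then males. Females exceeded E10.5 by 0.69 ± 0.15 and males by 3.09 ± 0.15 on the log2(RPM + 1) scale. In reads the ratio of females to males was 8.86, with a 95% counting interval of 7.26 to 10.9. The gene lies on chr2:38723369-38926461, minus strand, and overlaps the antisense gene Nr6a1os and the hairpins of Mir181a-2 and Mir181b-2, which were listed at 0. Nr6a1os was not analysed here, and because the use of strand in counting is not given in the sources used here, its reads and those of Nr6a1 cannot be told apart.

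Cited1, the co-activator gene, was at the floor of detection at E10.5 and E11.5 and was high in E13.5 females. It stood at 1.35 and 0.960 RPM at E10.5, which are 3 reads each, at 1.35 and 0.569 RPM at E11.5, which are 2 reads each, at 7.35 and 8.10 RPM in E13.5 males, and at 70.9 and 66.6 RPM in E13.5 females. Females stood above males and males above both earlier stages, with no overlap, and the E10.5 and E11.5 libraries could not be ordered at this depth. The reads were 582 in females against 6 at E10.5, a ratio of 61.4 with a 95% counting interval of 28.1 to 168. Against E11.5, with 4 reads, the ratio was 86.2 with an interval of 33.5 to 318. Against males it was 8.95 with an interval of 6.60 to 12.4. On the log2(RPM + 1) scale the difference of females from E11.5 was 5.18 ± 0.39, the fourth largest rise of 10749 genes. Because the gene was chosen for its E13.5 female level, this rank is a description only. Cited1 lies on the X chromosome (chrX:102247378-102252181, minus strand). Its annotated neighbour Rps4x, an X-linked ribosomal protein gene, was 6846 to 6894 RPM in E13.5 females and 3643 to 3719 RPM in E13.5 males, and its E10.5 level was 4674 to 5223 RPM.

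Zfp238, the BTB zinc finger gene, was higher at E13.5 than before in both sexes and was the member that differed least between them. The libraries held 4.51 and 1.92 RPM at E10.5, then 0.673 and 1.99 at E11.5, 22.7 and 19.0 RPM in E13.5 males, and 34.7 and 50.4 RPM in E13.5 females. Every E13.5 library stood above every earlier one, both female libraries stood above both males, and E10.5 and E11.5 overlapped. The female mean exceeded that of E10.5 by 3.42 ± 0.39 and that of males by 0.98 ± 0.39 on the log2(RPM + 1) scale. In reads the ratio to males was 1.99 with a 95% counting interval of 1.61 to 2.46, and the female libraries themselves spread from 34.7 to 50.4 RPM. An antisense gene, Gm26801, overlaps the start of Zfp238 at chr1:177442351-177450764 (plus strand) and was not analysed here.

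**Figure D1:**
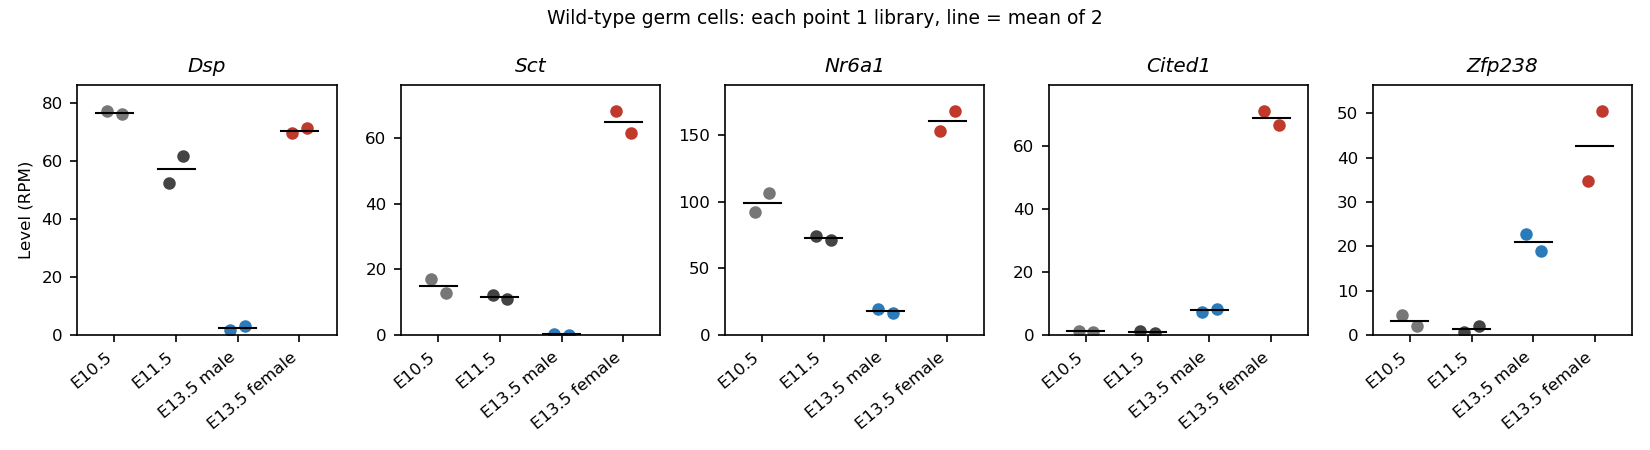
Level in RPM (vertical axis, linear, starting at 0) of each gene in the 8 wild-type libraries by group, with 1 point per library and a line at the mean of 2. Dsp, Sct and Nr6a1 are lowest in E13.5 males, whereas Cited1 and Zfp238 are lowest at E10.5 and E11.5.

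By the value of the difference between E13.5 females and E10.5, with -1 and 1 on the log2(RPM + 1) scale as limits, Dsp and Nr6a1 were kept and Sct, Cited1 and Zfp238 were newly raised. Nr6a1, at 0.69, was nearer to the limit than Dsp. In reads, females stood at 0.920 times the E10.5 level for Dsp, 1.59 for Nr6a1, 4.47 for Sct, 13.9 for Zfp238 and 61.4 for Cited1. These classes were the same under all 15 settings tried, in which the difference ran from -0.27 to -0.10 for Dsp, from 0.54 to 0.79 for Nr6a1, from 1.59 to 2.25 for Sct, from 1.98 to 3.88 for Zfp238 and from 2.82 to 5.79 for Cited1. Markers of other cells also moved between these stages: the erythroid sum was 213 to 224 RPM at E10.5 and 22.8 to 32.6 RPM in females, and the sum of 7 stromal markers was 48.3 to 53.1 and 2.74 to 3.14 RPM. Their part in the 5 differences was not tested.

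**Figure D2:**
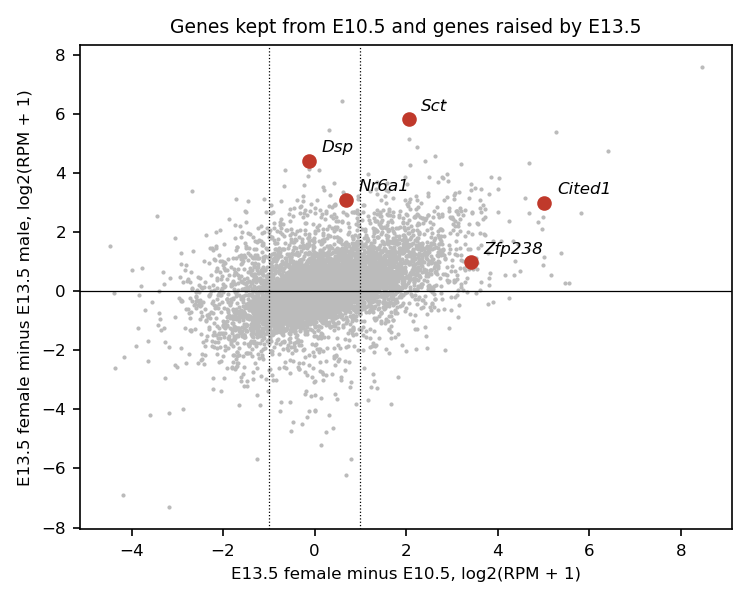
Each grey point is 1 of 10749 genes in the wild-type libraries, placed by the E13.5 female minus E10.5 difference (horizontal axis) and the E13.5 female minus male difference (vertical axis), both on the log2(RPM + 1) scale, with dotted lines at -1 and 1. Dsp and Nr6a1 lie between the dotted lines at -0.12 and 0.69, and Sct, Zfp238 and Cited1 lie to the right at 2.05, 3.42 and 5.02.

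The course in males divided the 5 genes in another way. From E11.5 to E13.5 males the log2(RPM + 1) level differed by -4.12 for Dsp, -3.43 for Sct and -1.96 for Nr6a1, and by 2.18 for Cited1 and 3.28 for Zfp238. Sct was thus the one gene of the 5 that was both newly raised in females and lower in males than at E11.5. Over the 8 wild-type libraries Pearson's r was 0.90 between Dsp and Sct, 0.94 between Dsp and Nr6a1, 0.98 between Sct and Nr6a1, and 0.91 between Cited1 and Zfp238. The other 6 pairs ran from -0.35 to 0.36. These are descriptions over 8 libraries in 4 groups that share their group structure and depth.

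The change from E10.5 to E11.5 did not enter the choice of the genes and was tested. With limma on log2(RPM + 1) across 10749 genes, 460 (4.28%) passed an adjusted p of 0.05 (Benjamini-Hochberg), with 2.31% higher and 1.97% lower at E11.5. Dsp, Sct and Nr6a1 were not among them. Nr6a1 differed by -0.44 ± 0.15 (limma adjusted p = 0.0998), with both E11.5 libraries below both E10.5 libraries. Zfp238 differed by -0.84 ± 0.39 (limma adjusted p = 0.227), with overlapping groups and 1 and 7 reads at E11.5. Zfp238 and Cited1 stayed under 5 RPM in every E10.5 and E11.5 library and passed the filter through the E13.5 libraries alone, so they had no value when the fit held only E10.5 and E11.5. Their p-values are therefore not counted with those of Dsp, Sct and Nr6a1. Dsp differed by -0.42 ± 0.22, again with E11.5 below E10.5 in every library (limma adjusted p = 0.313). The limma adjusted p was 0.621 for Sct and 0.865 for Cited1. The estimates of Dsp, Sct and Nr6a1 were negative, beside a median of 0.02 over all genes. Those of Zfp238 and Cited1, from 1 to 10 reads per library, were also negative, but that of Cited1 became 0.13 without E11.5 replicate 2. The share of negative estimates over all genes was not computed. At an unadjusted p under 0.05 the limma test passed Nr6a1 but not Dsp or Sct, beside 2057 of all 10749 genes (19.1%). Zfp238 passed as well but is not counted, for the reason given above. The smallest adjusted p over the alternatives was 0.0605 for Nr6a1.

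The floxed E11.5 cells, from dams given 4-OHT, were not used to choose the genes. Their table was normalised separately, so no test was made across the tables. Against the controls, 228 of 9384 genes (2.43%) were called in the CKO-labelled libraries (1.93% higher, 0.501% lower), and 0 of the 3 members that passed the filter of 5 RPM in 4 libraries. Dsp was 75.0, 62.5, 71.8 and 94.0 RPM in controls 1 to 4 and 94.1, 67.8, 95.3 and 76.1 RPM in CKO-labelled 1 to 4. The groups overlapped, with a difference of 0.14 ± 0.15 on the log2(RPM + 1) scale (limma adjusted p = 0.802). Nr6a1 was 76.8, 60.9, 83.2 and 67.1 RPM in the controls and 75.9, 62.8, 70.03 and 60.8 RPM in the CKO-labelled libraries. Its groups overlapped as well, and the difference was -0.09 ± 0.13 (limma adjusted p = 0.858).

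Zfp238 had a higher mean in the CKO-labelled libraries but did not pass the test. Its values were 0.883, 7.76, 5.03 and 2.83 RPM in controls 1 to 4 and 8.59, 10.1, 7.75 and 6.79 RPM in CKO-labelled 1 to 4. CKO-labelled 1 and 2 lay above every control, and 3 and 4 lay just below control 2. The difference was 1.06 ± 0.39 (limma adjusted p = 0.249), and the smallest adjusted p over the settings in which it was tested was 0.0763. The difference was 0.65 without control 1, which held 3 reads, and 0.40 with a pseudocount of 10. At an unadjusted p under 0.05 Zfp238 was the 1 of the 3 members that passed, beside 12% of all genes tested.

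Sct and Cited1 did not pass the filter in the floxed table and were tested singly by an exact two-sided permutation test of 4 against 4, whose smallest possible p is 0.0286. Sct was 4.41, 4.38, 3.72 and 10.8 RPM in the controls and 3.25, 4.17, 4.02 and 7.51 RPM in the CKO-labelled libraries. The groups overlapped, and replicate 4 was the highest of each (difference of -0.20 on the log2(RPM + 1) scale, exact permutation p = 0.571). Cited1 was 1.18, 2.39, 0.438 and 0.236 RPM in the controls and 5.57, 0.596, 1.72 and 3.57 RPM in the CKO-labelled libraries, from 1 to 24 reads per library. CKO-labelled 1 and 4 lay above every control and the others did not (difference of 0.83, exact permutation p = 0.2). Those libraries also had the highest summed stromal markers, 74.1 and 191 RPM against 8.04 to 42.4 RPM in the other 6 floxed libraries, and the highest summed pre-granulosa markers, 17.0 and 44.7 RPM. The part of such cells in the Cited1 level was not tested.

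**Figure D3:**
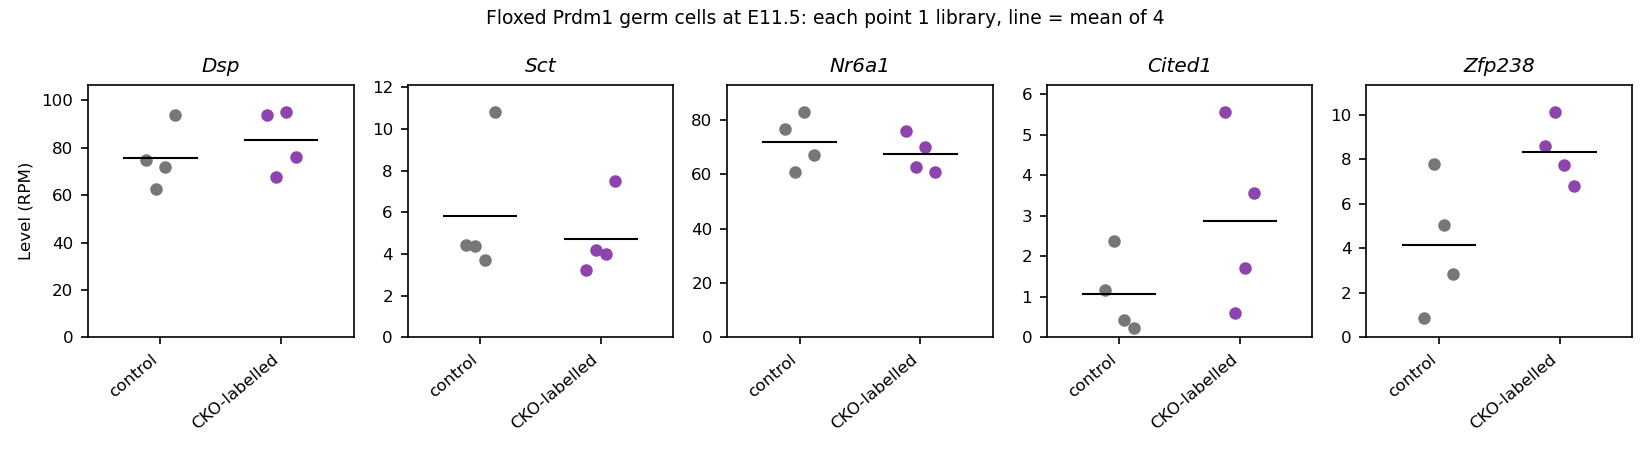
Level in RPM (vertical axis, linear, starting at 0) of each gene in 4 control and 4 CKO-labelled E11.5 libraries, with 1 point per library and a line at the mean of 4. The groups overlap for all 5 genes, and CKO-labelled Zfp238 lies between 6.79 and 10.1 RPM.

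Genes related to each member were listed by function and, being no members, were tested at E13.5. Of all 10749 genes, 37.6% were called between the sexes (21.2% higher and 16.4% lower in females) and 51.2% between E13.5 females and E11.5 (31.2% higher and 20.0% lower in females), so a called gene is common in both comparisons. Among the desmosome and plakin genes other than Dsp, 5 of 17 passed the filter, of which 3 were higher in females and 1 lower, with a median difference of 0.94 beside 0.05 over all genes. Against E11.5, 0 were higher in females and 2 lower, Evpl and Pkp2, with a median of -0.39 beside 0.13. Dsg2, a desmosomal cadherin, averaged 16.9 ± 4.50 RPM in females and 1.55 ± 0.300 in males (SD, n = 2, limma adjusted p = 5.4e-07). Perp, a membrane protein of the desmosome, averaged 16.2 ± 1.27 and 1.75 ± 2.005 RPM (limma adjusted p = 1.3e-06), and Pkp4 was also higher. Evpl, the plakin envoplakin, was lower in females, at 2.76 ± 0.358 against 8.26 ± 1.76 RPM. Like Dsp, Dsg2 and Perp were already present at E10.5, at 24.5 ± 2.99 and 20.7 ± 5.62 RPM. Jup, whose product plakoglobin joins desmoplakin to the cadherins, did not pass the filter, with 0.620 ± 0.286 RPM in females, 4.12 ± 0.154 in males and 4.40 ± 0.795 at E10.5. Pkp2, another plakophilin, averaged 55.8 ± 5.59 RPM in females and 66.9 ± 2.99 in males and was not called.

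Of the 12 filament and adherens junction genes 10 passed the filter, 5 higher and 1 lower in females than in males. Krt18, an intermediate filament keratin, averaged 24.8 ± 2.49 RPM in females, 3.10 ± 0.601 in males and 9.73 ± 2.34 at E11.5. It rose from E11.5 to E13.5 females by 1.28 ± 0.35 (limma adjusted p = 0.0030), as did Cdh2 and Ctnnb1. In the same comparison Krt7, Cdh3 and Ctnnd1 were lower, and Vim was also lower under both other scalings. Vim, Des, Cdh2 and Ctnnb1 were the others that were higher in females than in males, and Cdh3, the placental cadherin, was lower at 9.10 ± 1.62 against 26.4 ± 7.98 RPM.

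None of the 14 hormones and receptors related to secretin passed the filter. Sctr, the secretin receptor, was at 0 in every wild-type library except 1 E13.5 female library, which held 0.274 RPM, under the floor. The receptors Adcyap1r1, at 4.29 ± 1.03 RPM, and Vipr2, at 3.70 ± 0.200 RPM, each had their highest group mean in E13.5 females, and neither was tested.

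Most orphan nuclear receptors other than Nr6a1 were not called between the sexes. Of 11 tested, 8 were not called, 2 were higher in females than in males, Esrra (33.0 ± 7.13 against 7.49 ± 2.63 RPM) and Nr2f1, and Nr0b1 was lower, a call lost with a pseudocount of 10. Of 8 genes that Nr6a1 is known to repress, 3 passed the filter, and all 3 were lower in females than in males and than at E11.5. Of all genes, 16.4% and 20.0% were lower in these comparisons. Tdgf1 was also 1 of the male germ cell genes of the label check, so its lower level in females was built into its choice. Cyp26a1, which did not pass the filter, went the other way by value, with 1.08 ± 1.14 RPM in females, 0 in males and 0.142 ± 0.201 at E11.5. Pou5f1, a pluripotency factor, averaged 375 ± 15.7 RPM in females, 528 ± 4.28 in males and 748 ± 4.98 at E11.5. Nanog, another, averaged 52.7 ± 5.07, 82.4 ± 7.45 and 142 ± 20.1 RPM. Tdgf1, the NODAL co-receptor, was at 0 in both female libraries and averaged 17.2 ± 2.58 RPM in males and 20.0 ± 0.684 at E11.5. The male levels of all 3 lay between those at E11.5 and in females, and the Nr6a1 level was lowest in males. In the CKO-labelled libraries Tdgf1 was higher than in the controls, at 58.7 ± 10.8 against 18.6 ± 1.37 RPM (SD, n = 4, limma adjusted p = 7.7e-05), with Nr6a1 as given above. A link between the Nr6a1 level and the levels of these 3 genes was not tested.

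Among the Cited1 paralogs and partners, 6 of 11 genes passed the filter, with 2 higher and 1 lower in females than in males. Tfap2c, a germ cell transcription factor of the AP-2 family whose members recruit CITED proteins, averaged 107 ± 11.2 RPM in females, 30.0 ± 8.57 in males and 186 ± 15.2 at E11.5. Hif1a, the hypoxia factor, was higher in females. Cited2 was lower, at 2.75 ± 1.53 against 10.5 ± 0.635 RPM (limma adjusted p = 0.0056), the reverse of its paralog Cited1. Cited4 did not exceed the filter in any group, with 0.555 ± 0.397 RPM in females. Crebbp and Ep300, which encode CBP and p300, were not called between the sexes.

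Of 34 other BTB zinc finger genes tested, 4 were higher and 3 lower in females than in males, and 8 were higher and 4 lower in females than at E11.5. Both balances turned under quantile normalisation, to 3 higher and 7 lower between the sexes and 4 higher and 6 lower against E11.5, and median-ratio scaling gave 3 and 4, and 5 and 4. Zbtb33, which encodes the methyl-DNA-binding repressor Kaiso, was higher in both comparisons. Zbtb42, the closest paralog of Zfp238, did not pass the filter and averaged 3.39 ± 0.529 RPM in females. Of 7 genes that Zfp238 is known to repress in neurons, 5 passed the filter. Apart from Rnd2 these were the related genes Id1, Id2, Id3 and Id4, so the 5 are not separate cases. All 5 were higher in females than at E11.5, as were 31.2% of all genes. Of them, 4 were higher than in males, as were 21.2% of all genes, and Zfp238 was also higher by value. Neurod1, which did not pass the filter, averaged 0.209 ± 0.296 RPM in females, 0 in males and 1.39 ± 0.0542 at E11.5, and Neurog2 was at 0. A link between the Zfp238 level and the levels of these genes was not tested. Id1, an inhibitor of basic helix-loop-helix factors and a known BMP target, averaged 201 ± 13.47 RPM in females, 5.81 ± 0.752 in males and 31.8 ± 14.0 at E11.5. Id2 averaged 34.0 ± 0.0620, 3.11 ± 1.09 and 8.51 ± 0.353 RPM in the same order. Rnd2, a small GTPase gene, averaged 24.0 ± 3.66 RPM in females and 13.2 ± 0.233 in males, and its call between the sexes was lost under both other scalings, with a pseudocount of 0.1 and with a replicate block. The Id3 call against E11.5 was lost under median-ratio scaling.

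**Figure D4:**
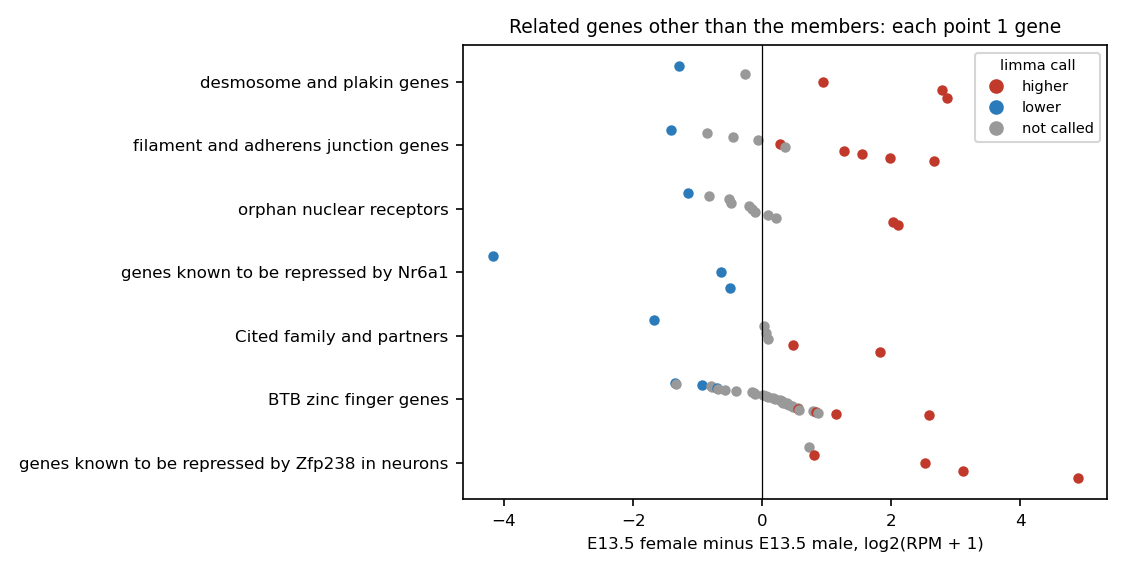
E13.5 female minus male difference on the log2(RPM + 1) scale (horizontal axis) for each tested gene of 7 lists, without the members, with 1 point per gene coloured by limma call (red, higher in females, blue, lower, grey, not called). The 3 genes known to be repressed by Nr6a1 lie left of 0, and the 5 known to be repressed by Zfp238 in neurons lie right of 0.

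For each member up to 4 of the most similar genes are named, chosen by Pearson's r of log2(RPM + 1) over the 8 wild-type libraries, among 4143 genes whose group means spanned at least 1. All these r values describe libraries in 4 groups and share depth and stage. Porcn, the acyltransferase that lipidates WNT proteins, was nearest to Dsp (r = 1.00), with 182 ± 4.10 RPM at E10.5, 135 ± 7.82 at E11.5, 10.4 ± 3.78 in E13.5 males and 165 ± 5.28 in E13.5 females. Phc2, a Polycomb subunit, Mfge8, a secreted phosphatidylserine-binding protein, and Id3 followed. Sct was followed by Syt5, a synaptotagmin, Slc22a18, a membrane transporter, Zfp462 and Gata2, a zinc finger factor of blood development. Gata2 averaged 39.1 ± 4.89, 29.1 ± 1.14, 2.54 ± 1.60 and 283 ± 7.71 RPM in the same order of groups. Idh2, the mitochondrial isocitrate dehydrogenase, the homeobox gene Gbx2, Zfp462 and Etl4 were nearest to Nr6a1, so Zfp462 was named for both Sct (r = 0.99) and Nr6a1 (r = 0.99). Zfp462 averaged 62.7 ± 3.18, 51.6 ± 0.648, 22.6 ± 0.122 and 106 ± 4.51 RPM.

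Among the genes nearest to Cited1 were Vstm2b, Epm2a, which encodes the glycogen phosphatase laforin, and Copb2, a coatomer subunit. Vstm2b and Epm2a were at 0 in all 4 libraries of E10.5 and E11.5 and averaged 9.23 ± 0.256 and 5.11 ± 0.135 RPM in E13.5 females. Nearest to Zfp238 were Camk2g, a calcium- and calmodulin-dependent kinase, Mga, a MAX partner, Mtmr6 and Fig4, both phosphoinositide phosphatases. Mga averaged 58.2 ± 4.61 RPM in E13.5 males and 62.7 ± 4.04 in E13.5 females, after 32.5 ± 5.16 at E10.5 and 28.0 ± 3.44 at E11.5.

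**Figure D5:**
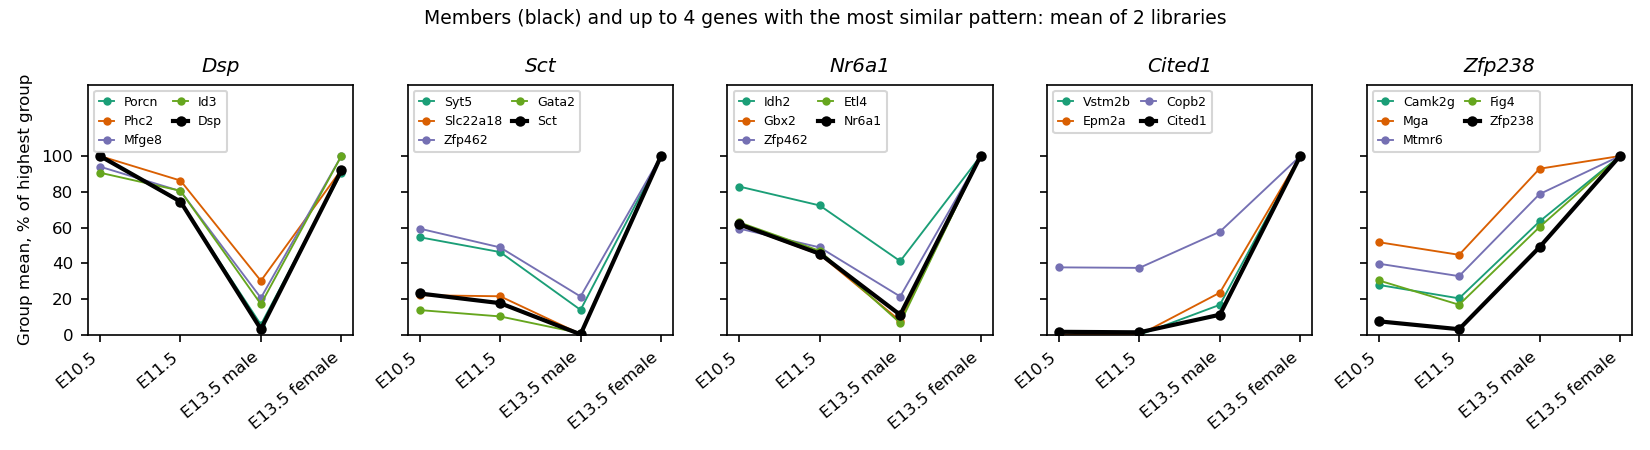
Group mean as a percentage of the highest group mean of the same gene (vertical axis) for each member (black) and up to 4 of its most similar genes (colours) in the 4 wild-type groups, with 1 point per mean of 2 libraries. Porcn follows Dsp with its minimum in E13.5 males, and the genes shown for Cited1 are highest in E13.5 females.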

How the data were processed

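The deposited values are in RPM, scaled by the authors to the reads assigned to genes in each library, and were not divided by gene length. Levels are therefore compared between libraries for the same gene or the same set of markers. Sums of different marker sets stand side by side above, but their sizes do not measure the shares of cell types. Per the submitters' processing notes, reads were processed with cutadapt 1.3, TopHat 1.4.1 and Cufflinks 2.2.0 on mm10, with no order or role stated. Per the labels, amplification took 11 PCR cycles, with 1 ng of RNA for the wild-type libraries. In the wild-type table the authors listed 92 ERCC spike-in RNAs, which were left out of all tests. The steps between low values gave the depth; at least 99.6% of positive values were whole multiples of the step within 0.05 reads. Because PCR copies of 1 molecule are counted as separate reads, floors and intervals describe counting error alone.

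The log2(RPM + 1) values entered limma 3.58.1 (mean-variance trend) in R 4.3.3, on genes at 5 RPM or more in at least 4 floxed or 2 wild-type libraries, and the p-values were adjusted by Benjamini and Hochberg's method over all genes tested, with calls under 0.05. The 8 wild-type libraries were fitted together and share 1 estimate of spread. The limma fits were tested on simulated data. The named genes are the 5 members, the 4 genes most similar to each (of which 1 is not reported here), up to 4 called genes of each list with the smallest p between the sexes, paralogs and neighbours. Genes named in the text outside this rule were chosen after their values were seen. The members and lists were chosen with earlier results of these data known. Promoter sequences are from RefSeq (GRCm38.p6), which is not stated to be the authors' annotation.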

Additional observations from a re-analysis of the deposited data

Results flagged for a closer look

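The Sct level of control 4 among the floxed E11.5 libraries was 10.8 RPM, far from the other 3 controls at 3.72 to 4.41 RPM. The gap to the nearest control took up 0.903 of the range of the 4 controls. A gap past the threshold used to pick it out arises by chance in about 1 of 20 groups of this size; the rate for this particular gap was not computed, and 10 groups were examined, the 5 genes in controls and in CKO-labelled libraries. The Sct level of CKO-labelled 4, at 7.51 RPM, was also the highest of its group.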

How the results depend on the processing

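The alternatives changed the pseudocount, filter, scaling, variance model, groups in the fit and replicates; fits on recovered reads and without CKO-labelled 1 and 4 were added after seeing the data. No member was called in E11.5 against E10.5 under any of them in which it was tested. The same held in CKO against control for Dsp, Nr6a1 and Zfp238, whereas Sct and Cited1 were not examined there. Only 1 value turned its direction, that of Cited1 in E11.5 against E10.5. It ran from -0.45 to 0.13 with single libraries left out (0.13 without E11.5 replicate 2). Of the members' other values, 45 untested ones kept their direction but moved by more than 1 SD, and 383 kept their direction with their call or, if untested, their size within 1 SD. Cited1 and Zfp238 rest on 1 to 7 reads per library at E11.5, so their folds are limited by depth. The number of genes called in CKO against control (228) became 139 with a filter of 20 RPM, 66 without CKO-labelled 1 and 4, and 101 (without CKO replicate 2) to 203 with single libraries left out. That of E11.5 against E10.5 (460) became 80 without a filter, 27 without the variance trend, 279 with array weights, and 100 (without E10.5 replicate 1) to 487 with single libraries left out. Between the sexes 4038 became 2552 to 3057, lowest without female replicate 2, and from E11.5 to E13.5 females 5502 became 3812 to 4946. The causes were not tested. Median-ratio scaling moved the share of higher calls from 53.9% to 43.1% in E11.5 against E10.5, and quantile scaling moved it from 61% to 49.3% in E13.5 females against E11.5, where the median of all genes shifted from 0.13 to -0.02. Replicate numbers were not taken as pairs, since not every pair's deviations correlated above 0.1 (0.241, 0.252 and 0.182 in 3 floxed pairs, 0.0198 in replicate 2, and -0.0305 to 0.0331 in the wild-type pairs); the first 3 values leave a partial pairing of the floxed libraries possible. With the replicate block the counts were 314, 559, 4099 and 5563, in the order CKO against control, E11.5 against E10.5, between the sexes, and females against E11.5.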
